A study of Mus musculus with 8 samples.

Results

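Ppara, which encodes the nuclear receptor PPARα, and 7 of its fasting-response target genes were followed in the liver and subcutaneous fat of obese MKRN1-null and WT mice. The 8 genes were taken by symbol (Ppara, Cyp4a10, Cyp4a14, Acot1, Vnn1, Ehhadh, Pdk4 and Fgf21) and were found in all 8 libraries, among 24532 gene identifiers of the annotation. MKRN1 is an E3 ubiquitin ligase, an enzyme that marks other proteins for degradation, and the study asked how its loss changes energy metabolism under a high-fat diet (HFD). The WT liver, MKRN1-null liver, WT adipose and MKRN1-null adipose groups held 2 libraries each, from male C57BL/6 mice aged 24 weeks by the labels. All of them had received the HFD from an age of 6 weeks, for 19 weeks by the labels, so the series holds no mice on a standard diet. These times and the stated age do not add up exactly, and the methods of the study give a shorter diet for its obesity experiments. The null allele is carried in every tissue, with WT littermates as controls, so a difference in one tissue is not separated from effects of the loss elsewhere. The sources used here give neither the hour of sampling nor whether the mice had been fed or fasted beforehand.

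PPARα is a receptor for fatty acids that pairs with RXR on DNA and is the main switch for fat burning in liver. In fasting, fatty acids released from fat tissue reach the hepatocyte, and PPARα raises the genes that oxidise them, turn them into ketone bodies and spare glucose. Its targets are also induced by synthetic activators of the fibrate class, and Cyp4a10 and Cyp4a14 are among the most used readouts of its activity in mouse liver. In adipose tissue Ppara is normally scarce, and the related receptor PPARγ, encoded by Pparg, prevails.

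The 4 liver libraries held 6.05 to 7.46 gigabases of aligned sequence and the 4 adipose libraries 5.72 to 9.24. In all 4 MKRN1-null libraries 5 of the 8 exons of the main Mkrn1 transcript, those at its 3′ end, were listed at a depth of 0. The same exons had 7.68 to 14.2 reads per base and aligned gigabase in WT liver and 13.1 to 23.2 in WT adipose tissue. Of the 6 hepatocyte markers, 5 were abundant in every liver library, whereas Ass1, an enzyme of the urea cycle, was at only 0.751 to 1.05 FPKM. FPKM counts fragments relative to the length of the transcript and to the fragments mapped in the library, and it allows levels to be set side by side between genes. In adipose tissue the library of MKRN1-null replicate 2 stood apart. Its 8 skeletal muscle markers summed to 68484 FPKM, against 28.7 to 190.2 FPKM in the other 3 libraries, and its 6 adipocyte markers summed to 16410 FPKM, against 34003 to 40168 FPKM. The median SD of log2(FPKM + 1) between the 2 MKRN1-null adipose libraries was 0.321, whereas it was 0.0706 to 0.0922 within each other group.

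In liver, the levels of Ppara mRNA itself overlapped between the genotypes, whereas 3 of its 7 targets fell in the MKRN1-null mice. These were Pdk4, a kinase that blocks the entry of pyruvate into the citric acid cycle, Ehhadh, a peroxisomal enzyme of fatty acid oxidation, and Vnn1, a pantetheinase. Fgf21, a hormone secreted by the liver in fasting, had a larger estimated difference than Vnn1 or Ehhadh but did not pass the adjusted threshold. Cyp4a10, Cyp4a14 and Acot1 had overlapping values in the 2 genotypes. The tests were made with limma on log2(FPKM + 1) of 10822 genes, and a gene was called at an adjusted p under 0.05. None of the 8 genes was called higher and 3 were called lower, where 16.9% of all genes tested were called lower, 2.51% higher and 19.5% in either direction. The median log2 fold change of the 8 genes was -0.74 and that of all genes -0.17. Scaling between libraries set much of this balance. Of all calls in liver 87.1% were lower in MKRN1-null mice, but 57.3% under median-of-ratios scaling, where the median of all genes was 0.05, and 63.3% after quantile normalization. The count for the 8 genes was 2 lower and 0 higher under both. With 2 mice per group, each p rests only on the spread between these samples, which limma in part shares across all genes tested.

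Ppara had 60.1 and 46.5 FPKM in WT liver and 60.1 and 48.2 FPKM in MKRN1-null liver (replicates 1 and 2 in that order here and below). The 2 genotypes covered the same range, and the difference between replicates was larger than that between genotypes. The log2 fold change was 0.02 (SE 0.17, 95% interval -0.42 to 0.47, limma adjusted p = 0.931). Of all genes tested, 94.2% had a larger absolute difference. Under median-of-ratios scaling the value was 0.28 (adjusted p = 0.283), and with TPM in place of FPKM its sign turned (-0.04). Ppara (chromosome 15, 85735564 to 85806851, plus strand, mm10) has 2 annotated transcripts with different 5′ exons. The one that starts at 85735776 carried 57.7 and 42.0 FPKM in WT liver and 56.9 and 46.0 FPKM in MKRN1-null liver. The other carried 2.41 and 4.55 FPKM in WT and 3.23 and 2.15 FPKM in MKRN1-null liver, so the share of the 2 transcripts overlapped between the genotypes as well.

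**Figure D1:**
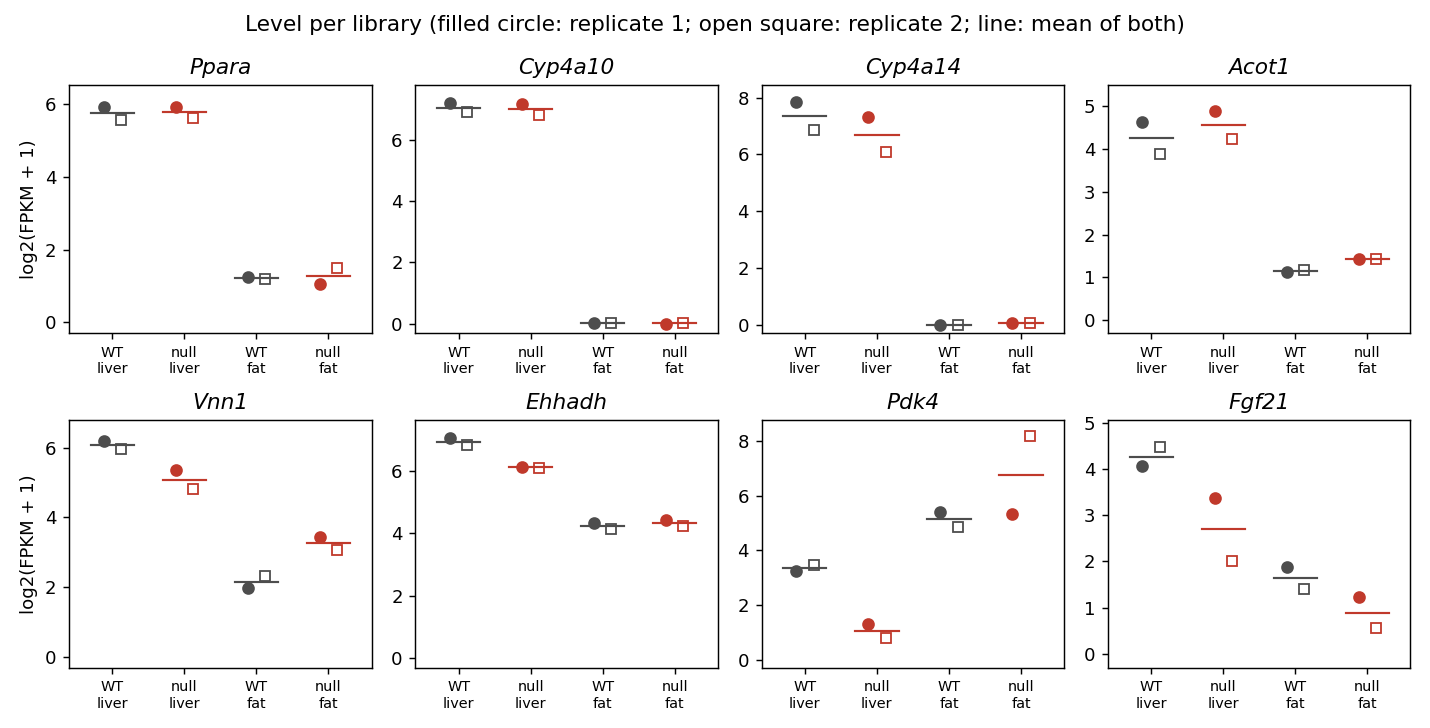
Level of each of the 8 genes in every library, as log2(FPKM + 1) on the vertical axis, for WT (grey) and MKRN1-null (red) liver and subcutaneous fat. Filled circles are replicate 1, open squares replicate 2 and lines the mean of both. In liver the MKRN1-null points of Pdk4, Ehhadh, Vnn1 and Fgf21 lie below both WT points, those of Ppara overlap with WT, and in fat only Pdk4 has a level above that in WT liver.

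Pdk4 showed the largest difference of the 8 genes. PDK4 phosphorylates and thereby inactivates the pyruvate dehydrogenase complex, which saves glucose when fat is being burned. Its mRNA was at 8.41 and 10.1 FPKM in WT liver and at 1.44 and 0.719 FPKM in MKRN1-null liver. Both MKRN1-null libraries were far below both WT libraries. This was a log2 fold change of -2.32 (SE 0.20, adjusted p = 0.0107), and 0.573% of all genes tested had a larger absolute difference. Because the MKRN1-null level was near the pseudocount, the value grew to -3.06 with a pseudocount of 0.1. The difference was -2.57 without MKRN1-null liver replicate 1 and -2.07 without replicate 2. Without replicate 1, Pdk4 entered the test only through the FPKM of the WT livers. The call was not kept in a limma fit of all 8 libraries together (adjusted p = 0.218), which left 0 of the 8 genes called. In depth per base and aligned gigabase, all 11 exons of Pdk4 were lower in both MKRN1-null livers than in both WT livers, and the ratio of the means ran from 0.0562 to 0.145 among exons.

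Ehhadh, the bifunctional enzyme that carries out the middle steps of peroxisomal beta-oxidation and makes dicarboxylic acids shorter, was at 129.9 and 111.6 FPKM in WT liver and at 69.2 and 67.0 FPKM in MKRN1-null liver. The 2 groups did not overlap, and the MKRN1-null values lay closest together of any of the 8 genes in that group (coefficient of variation 2.29%). The log2 fold change was -0.81 (SE 0.10, adjusted p = 0.0171). All 7 exons were lower in both MKRN1-null livers, with ratios of 0.456 to 0.584. The call was lost without MKRN1-null liver replicate 1 (adjusted p = 0.0608) or replicate 2 (adjusted p = 0.0963), at nearly the same log2 fold change (-0.84 and -0.79).

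Vnn1 encodes an enzyme on the cell surface that splits pantetheine into pantothenic acid, the precursor of coenzyme A, and cysteamine. It had 72.4 and 61.0 FPKM in WT liver and 39.7 and 27.2 FPKM in MKRN1-null liver. Both MKRN1-null values were below both WT values, for the gene and for each of its 7 exons. The log2 fold change was -0.995 (SE 0.20, adjusted p = 0.0362). The call was not kept without WT liver replicate 1 (adjusted p = 0.113), WT liver replicate 2 (adjusted p = 0.0674) or MKRN1-null liver replicate 2 (adjusted p = 0.111), nor under median-of-ratios scaling (-0.74, adjusted p = 0.079).

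Fgf21 was at 15.7 and 21.1 FPKM in WT liver and at 9.42 and 3.01 FPKM in MKRN1-null liver. Its product acts on adipose tissue and brain and is a widely used marker of PPARα activity in the fasted liver, although other stresses also induce it. The groups did not overlap, but the 2 MKRN1-null livers differed by more than the 2 WT livers. Its log2 fold change was -1.57 (SE 0.47, unadjusted p = 0.0220, adjusted p = 0.0769 by limma). Fgf21 thus passed only a second, looser pair of limits (unadjusted limma p of at most 0.05 and absolute log2 fold change of at least 0.58), which 13.4% of all genes passed as lower and 2.25% as higher. The 2 cut-offs are those of the study, but the study applied its limit of p to another quantity, a combined p from permutations, which was not computed here. By these limits 4 of the 8 genes were lower and 0 higher. Without MKRN1-null liver replicate 1 the value was -2.26 (adjusted p = 0.0296), and without replicate 2 it was -0.88 (adjusted p = 0.128). Each of its 3 exons was lower in both MKRN1-null livers, with ratios of 0.325 to 0.410.

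In 4 of the 8 genes (Pdk4, Ehhadh, Vnn1 and Fgf21) both MKRN1-null livers were below both WT livers, and in the other 4 the groups overlapped. Of all genes tested in liver, 57.5% had both MKRN1-null values below both WT values and 11.8% above, so this count is near the background. Under median-of-ratios scaling these 4 genes kept the direction, with -2.13 for Pdk4, -0.55 for Ehhadh, -0.74 for Vnn1 and -1.34 for Fgf21.

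**Figure D2:**
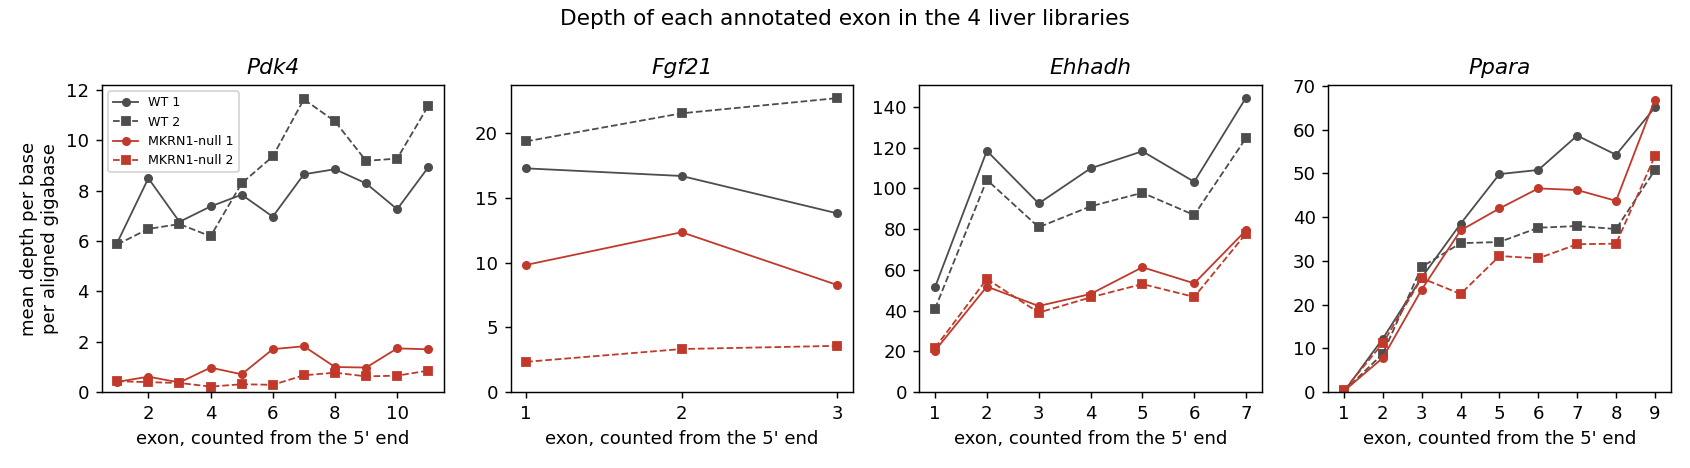
Mean depth per base and aligned gigabase (vertical axis) in each exon counted from the 5′ end (horizontal axis) of Pdk4, Fgf21, Ehhadh and Ppara in the 4 liver libraries. WT is grey and MKRN1-null red, with circles and full lines for replicate 1 and squares and dashed lines for replicate 2. The MKRN1-null lines run below both WT lines at every exon of Pdk4, Fgf21 and Ehhadh, and cross the WT lines in Ppara, whose first 2 exons belong to 1 transcript each.

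Cyp4a10 and Cyp4a14 encode cytochrome P450 enzymes that hydroxylate fatty acids at the far end of the chain, the first step of omega-oxidation. Cyp4a10 was at 145.1 and 120.0 FPKM in WT liver and 143.3 and 111.3 FPKM in MKRN1-null liver, so that the 2 groups overlapped nearly in full. Its log2 fold change was -0.06 (SE 0.16, 95% interval -0.49 to 0.37, adjusted p = 0.806). Under median-of-ratios scaling the sign turned (0.20). Cyp4a14 varied widely within each genotype, with 230.0 and 116.3 FPKM in WT liver and 157.9 and 67.2 FPKM in MKRN1-null liver. In both genotypes replicate 1 was the higher one, and the ranges overlapped. Its log2 fold change was -0.66 (SE 0.51, 95% interval -1.99 to 0.67, adjusted p = 0.382), and leaving out 1 library moved it between -1.27 and -0.05. An interval of this width does not separate no difference from a marked one.

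Cyp4a10 has the near copies Cyp4a31 and Cyp4a32 beside it on chromosome 4, and reads shared by such copies can be split among them by the quantification, so their single values are uncertain. Summed over the 3 genes, the level was 174.3 and 142.9 FPKM in WT liver and 177.3 and 134.0 FPKM in MKRN1-null liver. For this sum the log2 fold change was -0.03 (adjusted p = 0.905). Taken alone, Cyp4a31 had a log2 fold change of -0.45 (adjusted p = 0.105) and Cyp4a32 of 0.23 (adjusted p = 0.510).

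Acot1, a cytosolic thioesterase that releases fatty acids from coenzyme A, was at 23.8 and 13.8 FPKM in WT liver and 28.9 and 17.9 FPKM in MKRN1-null liver. The ranges overlapped, and the log2 fold change was 0.31 (SE 0.33, 95% interval -0.55 to 1.17, adjusted p = 0.523). Its neighbour and near copy Acot2, a mitochondrial thioesterase, was at 14.0 and 7.36 FPKM in WT liver and 6.47 and 3.62 FPKM in MKRN1-null liver, with a log2 fold change of -0.93 (adjusted p = 0.129). Summed over both genes the sign turned, with 37.8 and 21.2 FPKM in WT and 35.4 and 21.5 FPKM in MKRN1-null liver (log2 fold change -0.03, adjusted p = 0.952). No direction can therefore be given for Acot1.

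**Figure D3:**
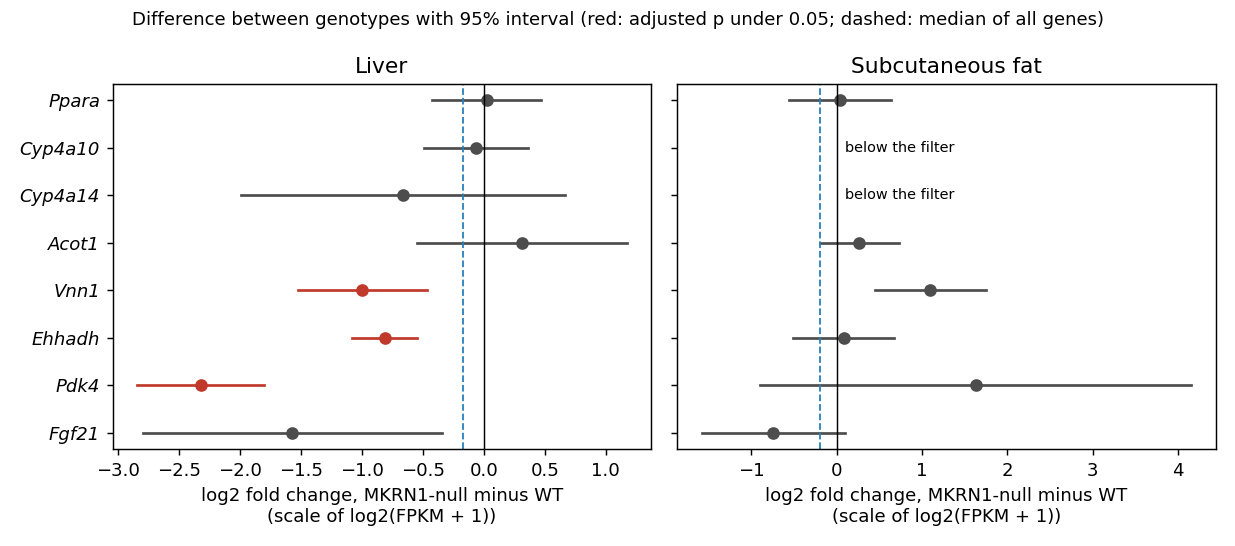
Log2 fold change of each gene, MKRN1-null minus WT on the scale of log2(FPKM + 1) (horizontal axis), in liver and in subcutaneous fat, with points for the estimate and lines for its 95% interval. Genes called at an adjusted p under 0.05 are red and the dashed line is the median of all genes. In liver the intervals of Pdk4, Fgf21, Vnn1 and Ehhadh lie below 0 and 3 of these are called. In fat none is called, the interval of Vnn1 lies above 0, and Cyp4a10 and Cyp4a14 were below the filter.

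Markers of other cell types moved with genotype in liver as well. The 5 stellate cell and fibroblast markers summed to 156.3 to 212.8 FPKM in WT liver and 57.8 to 61.0 FPKM in MKRN1-null liver, with 4 of the 5 lower in both MKRN1-null libraries. All 4 endothelial markers were lower in both MKRN1-null libraries (26.3 to 41.4 FPKM in sum in WT, 17.7 to 21.3 FPKM in MKRN1-null). Of the 6 adipocyte markers 3 were lower (138.1 to 153.4 FPKM in sum in WT, 23.1 to 37.6 FPKM in MKRN1-null), and the defining Adipoq, Lep and Plin1 were at 0.225 FPKM or less in every liver. The Kupffer cell and macrophage markers summed to 44.4 to 104.2 FPKM in WT and 47.4 to 54.8 FPKM in MKRN1-null liver, with 4 of 6 lower in both MKRN1-null libraries. The 6 hepatocyte markers summed to 51403 to 57431 FPKM in WT and 62084 to 63633 FPKM in MKRN1-null liver. Of these 6, 4 were higher and 1 was lower in both MKRN1-null libraries. Among the 4 was the scarce Ass1, at 0.751 and 0.780 FPKM in WT and 1.01 and 1.05 FPKM in MKRN1-null liver. Of all genes tested in liver, 57.5% were lower in this sense and 11.8% higher, so the counts of adipocyte and macrophage markers are near the background. The part of these differences in the levels of Pdk4, Ehhadh, Vnn1 and Fgf21 was not tested, and in bulk tissue fewer cells of a type cannot be told apart from less RNA per cell.

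PPARα binds with RXR to a direct repeat of the half-site AGGTCA with 1 base between the copies. The windows of 250 bases before the start site are shown for the 3 genes with the lowest MKRN1-null to WT ratio among the 5 of the 8 genes that have a window in the RefSeq promoter table (build GRCm38.p6, the assembly named mm10). Capitals mark the stretch closest to that repeat on either strand, with 4 mismatches in the 12 fixed positions in each gene (where several stretches tied, the one farthest from the start site). Pdk4 is at chr6:5496279-5496528 (minus strand), Fgf21 at chr7:45615491-45615740 (minus strand) and Ehhadh at chr16:21787835-21788084 (minus strand), each written 5′ to 3′ on the strand of the gene.
Pdk4: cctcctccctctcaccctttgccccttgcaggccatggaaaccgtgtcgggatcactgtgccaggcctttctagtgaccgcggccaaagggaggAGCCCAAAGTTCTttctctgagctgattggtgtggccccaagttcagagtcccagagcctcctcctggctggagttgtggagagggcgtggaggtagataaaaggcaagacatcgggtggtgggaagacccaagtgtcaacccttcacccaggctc
Fgf21: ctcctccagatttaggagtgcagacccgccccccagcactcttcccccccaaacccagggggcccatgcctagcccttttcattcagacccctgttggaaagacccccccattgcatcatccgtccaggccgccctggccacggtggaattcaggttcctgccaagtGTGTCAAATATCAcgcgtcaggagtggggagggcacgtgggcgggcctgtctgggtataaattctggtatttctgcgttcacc
Ehhadh: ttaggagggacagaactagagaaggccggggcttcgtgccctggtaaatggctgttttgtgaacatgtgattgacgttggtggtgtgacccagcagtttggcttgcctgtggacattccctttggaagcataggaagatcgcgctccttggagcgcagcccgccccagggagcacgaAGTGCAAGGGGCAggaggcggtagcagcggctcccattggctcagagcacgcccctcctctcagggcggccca

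None of the 5 windows (Pdk4, Fgf21, Ehhadh, Acot1 and Ppara) held the repeat with at most 2 mismatches or a single AGGTCA half-site on either strand. Of all 32851 promoter windows of 300 bases, 3.86% held the repeat with at most 2 mismatches, 79.8% held it with at most 4, and 16.3% held the half-site, which is contained in a perfect repeat. A stretch with 4 mismatches is therefore common, and its presence is only a description of these letters. Elements farther from the start site were not searched. Base composition differed between the windows, with 76.4% G and C in Ppara, 58.8 to 60.4% in Pdk4, Fgf21 and Ehhadh, and 48.8% in Acot1.

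The genes around PPARα in liver were described by lists that did not include the 8 genes, and are read against the same background of 16.9% called lower and 2.51% higher. Because scaling moved the balance of calls, the counts under median-of-ratios scaling are given as well, an addition made after the data were seen. Under that scaling, quantile normalization and TPM, no gene named below as rising or falling changed its direction. The counts did differ among these settings, and with TPM 91.7% of all calls in liver were lower. Among 19 receptors and coregulators, 2 fell and 2 rose. Pparg, the lipid-storing relative of Ppara, had a log2 fold change of -1.63 (adjusted p = 0.0135), and Rxrg, a minor RXR form, of -0.80 (adjusted p = 0.0315). Nr1d1, a repressor of the circadian clock, rose by 0.77 (adjusted p = 0.0264) and Hnf4a, a hepatocyte transcription factor, by 0.53 (adjusted p = 0.0355). Rxra, which encodes the main hepatic partner of PPARα, did not pass (0.32, adjusted p = 0.0602), nor did Ppargc1a, its coactivator in fasting (-0.38, adjusted p = 0.115). The median of this list was 0.10, against -0.17 for all genes. Under median-of-ratios scaling 5 receptors and coregulators were called higher, Rxra among them (0.58), and 1 lower (Pparg).

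Further lists held enzymes that use the same substrates as CYP4A, ACOT1 and EHHADH. Of 8 tested genes of omega-hydroxylation, Aldh3a2, which oxidises fatty aldehydes, fell (log2 fold change -1.06), whereas the P450 genes Cyp4f14 (0.98) and Cyp4f15 (0.67) rose. Of 8 acyl-CoA thioesterases, 2 fell, namely Acot9 (-1.26) and Acot13 (-0.55). Of 23 genes of peroxisomal oxidation and proliferation, 3 fell and none rose. Among them were Abcd2 (-1.32), a transporter of very long chains into the peroxisome, and Crot (-0.60), which hands shortened chains on to carnitine. Of 19 genes of mitochondrial beta-oxidation, Hadh, the short-chain hydroxyacyl-CoA dehydrogenase, fell (-0.50) and Acsl1, which activates long chains, rose (0.48). Cpt1a, the gate for fatty acids into mitochondria, had a log2 fold change of -0.28 (adjusted p = 0.420). The medians of these 4 lists were 0.51, -0.27, -0.21 and -0.28 in that order. Under median-of-ratios scaling they were 0.76, -0.02, 0.05 and -0.02. With that scaling none of the genes of omega-hydroxylation, peroxisomal oxidation or mitochondrial beta-oxidation was called lower, and 1 thioesterase was (Acot9), while 2, 1 and 1 genes of the first 3 and 1 thioesterase were called higher. This did not hold under the other settings. After quantile normalization 2 peroxisomal genes were called lower and 0 higher, and 1 gene of omega-hydroxylation was called lower and 1 higher. With TPM 5 peroxisomal genes were called lower and 0 higher, and 8 mitochondrial genes lower and 1 higher.

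Of 7 tested genes of ketone body synthesis and transport 5 fell, among them the monocarboxylate carriers Slc16a1 (log2 fold change -1.13) and Slc16a6 (-1.01), Bdh1 (-0.61), which interconverts the ketone bodies, and Acat1 (-0.45), a mitochondrial thiolase. Bdh2 rose by 0.68. The list median was -0.52. Under median-of-ratios scaling 2 of the 7 were called lower (Slc16a1 and Slc16a6) and 1 higher (Bdh2).

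Of 29 tested genes of the list of other textbook PPARα targets, 13 fell and none rose, and the list median was -0.56. The 4 with the largest change were Cidec (-3.63) and Plin4 (-2.15), which encode proteins of the lipid droplet, Orm2 (-2.41), an acute-phase protein, and Cd36 (-2.41), a fatty acid carrier. Cidec, Cd36, Plin4 and others of this list are also targets of PPARγ, and Cidec was among the adipocyte markers given above. Fabp1, the liver fatty acid binding protein (-0.17, adjusted p = 0.480), and Angptl4, a secreted inhibitor of lipoprotein lipase (0.39, adjusted p = 0.235), are well-known PPARα targets that did not pass. Under median-of-ratios scaling 5 genes of the list were called lower and 1 higher, with a median of -0.30, and Plin4 was not among the calls.

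The lists around single targets gave the following. Around Pdk4, 4 of 10 tested genes of the pyruvate dehydrogenase complex and its kinases fell (Dlat -0.70, Mpc1 -0.61, Pdha1 -0.46 and Dld -0.37), where Dlat, Pdha1 and Dld encode subunits of the complex and Mpc1 a pyruvate carrier. The other tested kinase genes Pdk1 (-0.16) and Pdk2 (0.18) were not called. Around Fgf21, of 13 genes of its receptors and of other hormones made by liver, Fetub rose (0.72) and Fst (-0.69) and Selenop (-0.51) fell. Klb, the coreceptor of FGF21, did not pass (0.25, adjusted p = 0.314). Around Vnn1, of 10 genes of pantetheine and coenzyme A metabolism only Ppcs, a step of coenzyme A synthesis, fell (-0.41). The list medians were -0.23, -0.15 and -0.21. Under median-of-ratios scaling they were 0.02, 0.09 and 0.03, so that all turned sign. Dlat alone was then called lower, whereas Mpc2 (0.40) of the pyruvate dehydrogenase list and Fetub (0.98) and Ahsg (0.82) of the FGF21 list were called higher.

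Of 17 tested fasting-induced liver genes of other regulators, Igfbp2 (2.07) and Klf15 (0.60) rose, and Cdkn1a (-2.13) and G6pc (-1.38), the last step of glucose release, fell. Of 11 feeding-induced genes, 4 fell, namely Fasn (-1.96), Elovl6 (-1.44) and Acly (-1.25) of fatty acid synthesis and Pklr (-0.75) of glycolysis, and Angptl8 rose (1.51). The list medians were 0.11 and -0.38. Under median-of-ratios scaling 3 of the fasting-induced genes were called higher and 0 lower (2 and 0 after quantile normalization), and 1 of the feeding-induced genes was called higher and 3 lower. The lists overlap in a few genes with each other, and the nutritional state of the mice, which changes these genes, is not known here.

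**Figure D4:**
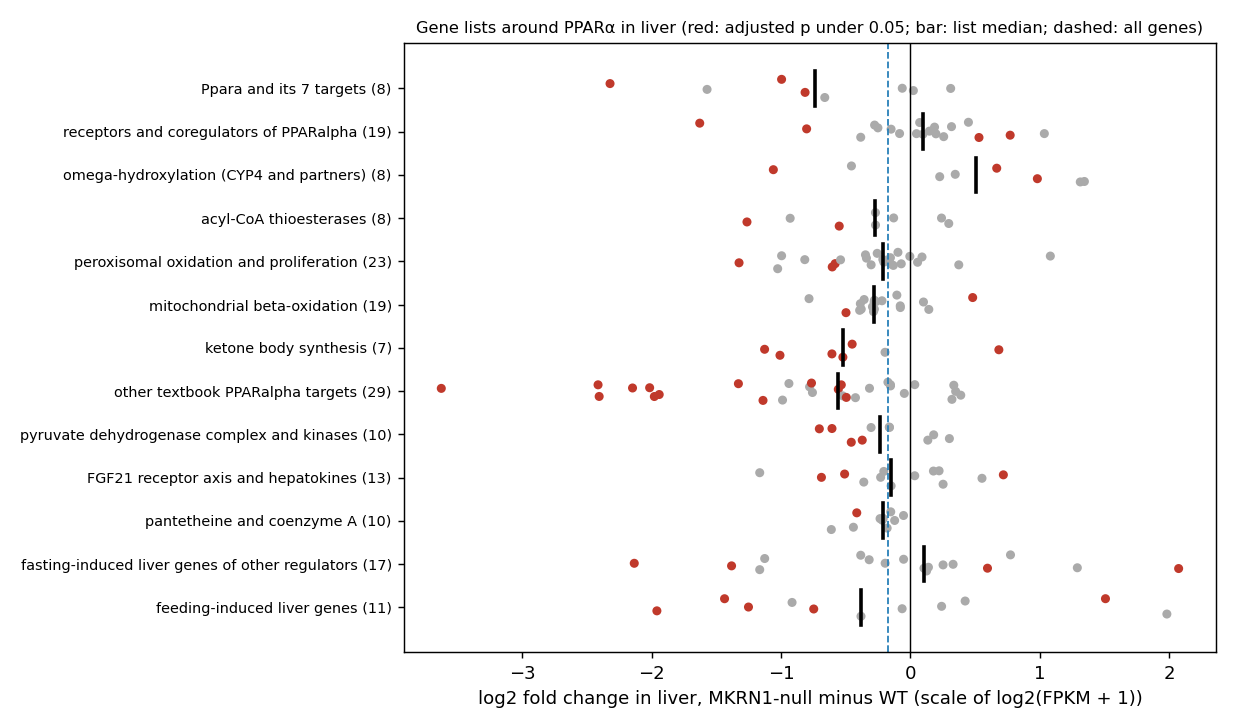
Log2 fold change in liver, MKRN1-null minus WT (horizontal axis), of every tested gene of each list (rows, with the number of genes tested). Red points passed an adjusted p under 0.05, grey ones did not, black bars are list medians and the dashed line is the median of all genes, -0.17. The bars of ketone body synthesis (-0.52) and other textbook targets (-0.56) lie left of the dashed line, and that of receptors and coregulators (0.10) lies right of it.

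In subcutaneous fat of WT mice Ppara, Vnn1, Acot1, Ehhadh and Fgf21 were lower than in liver, and Pdk4 was higher (limma, all 6 called). Cyp4a10 and Cyp4a14 passed the filter only through the liver libraries, which fixed their calls, so they are given by their values. Of all 12799 genes tested between the WT tissues, 17.9% were called higher in liver and 62.3% higher in adipose tissue, with a median log2 difference of 0.59. Ppara was at 1.38 and 1.29 FPKM in WT adipose tissue, a log2 difference of -4.53 to liver (adjusted p = 1.78e-05). Vnn1 (2.98 and 4.05 FPKM, -3.91), Acot1 (1.18 and 1.27 FPKM, -3.11), Ehhadh (19.2 and 16.6 FPKM, -2.69) and Fgf21 (2.66 and 1.64 FPKM, -2.63) differed by less. Cyp4a10 was at 0.0210 and 0.0230 FPKM and Cyp4a14 was listed at 0 in both WT adipose libraries, so that no fold is given for them. Pdk4 was at 40.8 and 28.1 FPKM in WT adipose tissue, a log2 difference of 1.77 (adjusted p = 0.000949). The hepatocyte markers summed to 5.08 to 7.12 FPKM in WT adipose tissue, against at least 51403 FPKM in liver.

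The order of the members by FPKM differed between the tissues. In WT liver it ran Cyp4a14, Cyp4a10, Ehhadh, Vnn1, Ppara, Acot1, Fgf21 and Pdk4 (means 173.1 to 9.26 FPKM). The values of Cyp4a14 and Cyp4a10, of Cyp4a10 and Ehhadh, and of Acot1 and Fgf21 overlapped, and the other neighbours did not. In MKRN1-null liver Cyp4a10 came before Cyp4a14 and Ppara before Vnn1, with means from 127.3 FPKM to 1.08 FPKM for Pdk4, which was again last. In WT adipose tissue Pdk4 (34.5 FPKM) and Ehhadh (17.9 FPKM) led, followed by Vnn1 (3.51 FPKM), Fgf21, Ppara and Acot1, and no neighbours overlapped.

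Between genotypes in adipose tissue, no gene passed the adjusted threshold of limma (0% of 12164 tested), although 785 had an unadjusted p under 0.05. The 8 genes can therefore only be given by their values there. Without MKRN1-null adipose replicate 2, 0 of them and 3 of all genes were called. Markers of other cell types also differed by genotype in fat. Of the 6 macrophage markers 5 were lower in both MKRN1-null libraries, as were 3 of the 4 endothelial markers. The macrophage markers summed to 207.0 to 310.0 FPKM in WT and to 194.3 and 59.0 FPKM in MKRN1-null replicates 1 and 2. For the endothelial markers the sums were 138.4 to 184.0 FPKM in WT and 91.1 and 46.3 FPKM in MKRN1-null. Both sums were lowest in replicate 2, the library with the muscle markers. Of the 6 hepatocyte markers 3 were higher in both MKRN1-null libraries (up to 24.0 FPKM in sum). Of all genes tested in adipose tissue, 36.1% were lower in this sense and 9.03% higher. The part of these marker differences in the values of Vnn1, Fgf21 and the other genes was not tested. Ppara was at 1.06 and 1.80 FPKM in MKRN1-null adipose tissue, on both sides of the WT values (log2 fold change 0.04, SE 0.23). Ehhadh was at 20.5 and 17.6 FPKM, also overlapping with WT (0.09, SE 0.23). Acot1 was at 1.68 and 1.68 FPKM, above both WT libraries (0.27, SE 0.18, unadjusted p = 0.192). Cyp4a10 (0 and 0.0251 FPKM) and Cyp4a14 (0.0266 and 0.0317 FPKM) were below the filter and were not tested.

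Vnn1 was at 9.93 and 7.44 FPKM in MKRN1-null adipose tissue and 2.98 and 4.05 FPKM in WT. Both MKRN1-null libraries were above both WT libraries, at each of the 7 exons, with ratios of 2.07 to 2.63. The log2 fold change was 1.10 (SE 0.25, unadjusted p = 0.00778, adjusted p = 0.680), so that Vnn1 alone of the 8 genes passed the looser pair of limits in fat, where 0.707% of all genes passed as higher and 5.36% as lower. The difference was as large without MKRN1-null adipose replicate 2, the library with the muscle markers (1.29), and was 0.91 without replicate 1.

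Pdk4 was at 39.3 and 287.6 FPKM in MKRN1-null adipose tissue. Replicate 1 lay within the range of the WT libraries and replicate 2 far above it. The estimate was a log2 fold change of 1.63 (SE 0.97, unadjusted p = 0.156). Without MKRN1-null adipose replicate 2 it was 0.21, and without replicate 1 it was 3.05. Pdk4 is abundant in skeletal muscle, and all 8 muscle markers were higher in replicate 2 than in every other adipose library, with Acta1 at 18463 FPKM and Ckm at 14652 FPKM. With replicate 2 left out, the difference did not exceed the spread between replicates. The part of muscle RNA in the Pdk4 level of replicate 2 was not tested.

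Fgf21 was at 1.36 and 0.465 FPKM in MKRN1-null adipose tissue, below both WT libraries. On the log2 scale the difference was -0.74 (SE 0.32, unadjusted p = 0.0719 by limma). It was -1.09 without MKRN1-null replicate 1 and -0.40 without replicate 2. The value of -1.09 rests on the library with the muscle markers, and Fgf21 then entered the test only through the FPKM of the WT libraries. In adipose tissue 2 of the 6 genes tested (Vnn1 and Acot1) were higher in both MKRN1-null libraries than in both WT libraries and 1 (Fgf21) was lower. For Acot1 this held at 2 of its 3 exons, and the third was lower. Of all genes tested, 9.03% were higher in this sense and 36.1% lower. None of the genes of the pathway lists was called in adipose tissue.

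The difference between genotypes was compared between the tissues by the interaction of tissue and genotype, in 1 limma fit of all 8 libraries over 9917 genes. No gene was called (0%), with 766 genes at an unadjusted p under 0.05. Vnn1, lower in MKRN1-null liver and higher in MKRN1-null fat by its values, had an effect in fat that exceeded that in liver by 2.09 log2 units (SE 0.34, unadjusted p = 0.000607, adjusted p = 0.287). The distance of the MKRN1-null libraries from the WT mean was -0.73 and -1.26 log2 units in liver and 1.29 and 0.91 log2 units in fat. The value for Pdk4 was 3.95 (SE 1.15, adjusted p = 0.509) and that for Ehhadh 0.90 (SE 0.23, adjusted p = 0.448). Of all genes tested 0.837% had a larger absolute interaction than Vnn1. Leaving out MKRN1-null adipose replicate 1 or replicate 2 leaves 1 library in that group. Its spread, the largest of the groups (median SD 0.321), then no longer enters the fit. Such fits cannot decide whether the effect differs between the tissues.

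The genes whose pattern over all 8 libraries was most like that of Ppara, Cyp4a14 and Fgf21 were found by the root mean square difference of log2(FPKM + 1) after centring each gene, among 10520 genes present in liver. For Ppara they were Pank1 (0.10), which encodes a pantothenate kinase, Timd2 (0.16) and Cdhr5 (0.17). Pank1 had 48.4 and 34.7 FPKM in WT liver, 40.4 and 35.0 FPKM in MKRN1-null liver and 0.625 to 0.968 FPKM in adipose tissue. For Cyp4a14 they were Bdh1 (0.33), Cyp4a10 (0.35) and Slc2a2 (0.38), the glucose carrier of the hepatocyte. For Fgf21 they were Arsg (0.30), Entpd5 (0.37) and Fdps (0.38). Arsg, an arylsulfatase, had 21.4 and 28.1 FPKM in WT liver and 8.58 and 5.57 FPKM in MKRN1-null liver. The contrast between liver and fat makes up most of these patterns, so a small difference here is a description over 8 libraries.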

How the data were processed

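The authors deposited 1 file per library with coverage, FPKM and TPM of 36780 transcripts, made from poly(A) RNA with HISAT2, SAMtools and StringTie 1.3.3b on mm10, per the labels and the file headers, whereas the methods of the study describe other aligners and counters. These values are scaled to the depth of each library and are not counts. They had no further normalization between libraries. The FPKM values of all transcripts of a gene identifier were added up, and 24462 of 24532 identifiers matched a symbol. Genes entered a test with an FPKM of 1 or more in 2 or more of the libraries fitted. Each comparison was fitted to log2(FPKM + 1) with limma 3.58.1 in R 4.3.3 (eBayes with a trend of the variance), without a replicate term, and p was adjusted over all genes tested by the Benjamini-Hochberg method. Fold changes are on this scale and understate those of scarce genes. Aligned bases were computed from coverage and FPKM of the same transcripts, and their number limits the precision for scarce transcripts. Exon depth was divided by them. The procedure was also run on simulated data with independent noise in each gene. These data held no shift of scale between libraries and no library with muscle markers, so the run does not bear on either. Tables and figures were made with Python 3.11.15, pandas 2.3.3 and matplotlib 3.10.9.

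The 8 genes and the gene lists were chosen with earlier results of these data known, so the lists are not independent support. The rule for named genes took the 8 genes, up to 4 called members of each list with the largest change in liver, the near copies, Mkrn1, and the 3 genes most like Ppara, Cyp4a14 and Fgf21. Rxra, Ppargc1a, Cpt1a, Acat1, Fabp1, Angptl4, Pdk1, Pdk2, Klb, Pklr, Mpc2 and Ahsg fall outside it and were named after their values were seen. A few list genes are counted but not reported singly here. As alternatives, values were scaled by median of ratios or by quantiles, TPM replaced FPKM, the pseudocount was set to 0.1, the filter was dropped or raised to an FPKM of 5, the trend was dropped, a replicate block was added, all 8 libraries entered one fit, near copies were summed and each library was left out in turn. Liver and fat with the same number in their titles carry the same mouse number, and the correlation of their deviations from the group means across genes was 0.0598 in WT and 0.0652 in MKRN1-null mice. Counts of libraries that do not overlap were added after the data were seen. Where leaving out a library leaves 1 in a group, that library is assumed to vary like the other groups.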

Additional observations from a re-analysis of the deposited data

How the results depend on the processing

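In liver, Pdk4 was called under each alternative that left out no library, except all 8 libraries in one fit (limma adjusted p = 0.218). That fit left 0 of the 8 genes called against 3. With the filter at an FPKM of 5, Pdk4 entered the test only through the WT livers. Vnn1 was also not called without the filter (adjusted p = 0.0610) or after quantile normalization (adjusted p = 0.0664), and Fgf21 was called only without MKRN1-null liver replicate 1. Leaving out 1 library gave 1 to 3 called genes, with 1 (Pdk4) without MKRN1-null liver replicate 2. In adipose tissue the count of called genes was 0 when no library was left out, except under the replicate block, with 1 (Pdk4). The interaction gave 0 in each fit that kept all 8 libraries. Between the WT tissues the 6 genes other than Cyp4a10 and Cyp4a14 were called under each alternative, although a filter at an FPKM of 5 itself favours genes that are high in liver.

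Same-numbered WT and MKRN1-null mice share only a number (2 pairs per tissue, correlation of deviations 0.0067 in liver and 0.113 in adipose tissue). The replicate block gave 4 called genes in liver, with Cyp4a14 added (adjusted p = 0.0361), and 1493 of all genes against 2106. It gave 421 of all genes in adipose tissue against 0. Paired by mouse, the comparison of WT tissues kept these 6 calls and the interaction had 0.

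Differences near 0 changed sign, and the cause was not tested. In liver these were Ppara with TPM (-0.0405) and on leaving out 1 library (-0.16 to 0.21), Cyp4a10 under median-of-ratios scaling (0.20) and on leaving out 1 library (-0.24 to 0.12), and Acot1 on leaving out 1 library (-0.0602 to 0.684) and summed with Acot2 (-0.0338). In adipose tissue they were Ppara with TPM (-0.0316) and on leaving out 1 library (-0.18 to 0.26), and Ehhadh with TPM (-0.0110) and on leaving out 1 library (-0.0169 to 0.189). In the interaction they were Ppara under median-of-ratios scaling (-0.12), quantile normalization (-0.0170) and on leaving out 1 library (-0.21 to 0.24), and Acot1 with a pseudocount of 0.1 (0.10), with TPM (0.0055) and on leaving out 1 library (-0.42 to 0.33).

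The number of genes called depended on the setting, with 52 to 1286 called in liver when 1 library was left out. With 2 mice per group, FPKM in place of counts and 1 adipose library with muscle markers, a difference that did not pass is not shown to be absent. Depth limits Cyp4a10 and Cyp4a14 in fat, where values near 0 rest on very few fragments.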
